A study of Mus musculus with 62 samples.

Results

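The regions described here are the stretches of chromatin that the authors assigned to Nr4a1, Nr4a2 and Nr4a3, the 3 genes of the NR4A family of nuclear receptors, in mouse skeletal muscle. They were chosen by the gene name written beside each peak in the 16 lists of H3K27ac and H3K4me2 peaks and in the 4 lists of regions called hyper- or hypoacetylated. Of the 596282 peaks in the 16 lists, 136 carried one of the 3 names, with 52 for Nr4a1, 50 for Nr4a2 and 34 for Nr4a3. Of the 5334 regions in the 4 differential lists, 0 carried one.

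The NR4A genes encode orphan nuclear receptors: Nr4a1 (NUR77), Nr4a2 (NURR1) and Nr4a3 (NOR1). Unlike most receptors of this superfamily they have no roomy pocket for a ligand, so their activity is set largely by how much of them is made. They are immediate early genes that cyclic AMP, calcium and growth signals switch on within minutes, largely through CREB, SRF and MEF2 proteins. In muscle, adrenergic stimulation and exercise induce them, and they act on genes of glucose and fatty acid use. They bind DNA as monomers at a site called NBRE, and Nr4a1 and Nr4a2 also pair with the retinoid X receptors. H3K27ac marks active promoters and enhancers, and H3K4me2 marks promoters and enhancers whether or not they are active.

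All histone libraries came from C57BL/6 mice (C57BL/6J in the study's methods), in 8 groups with 2 libraries per group and mark. The muscle groups were quadriceps (Quad) and extensor digitorum longus (EDL), which are mainly glycolytic, and soleus (Sol) and diaphragm (Dia), which are more oxidative, of sedentary wild type mice. The exercise groups were quadriceps of wild type mice after weeks of voluntary wheel running, taken hours after the last bout (Ex), and of sedentary wild type mice (Sed). The transgene groups were quadriceps of sedentary mice that carry Pgc1a under the muscle creatine kinase promoter (mTg) and of their wild type littermates (Wt). Quad, Sed and Wt are therefore 3 groups of untreated wild type quadriceps, profiled separately. A quadriceps library held the muscle of 1 animal, while an EDL, Sol or Dia library pooled several animals. The running mice were young adults when wheels were given, and the labels state no ages. Each library profiled a whole muscle, so fewer cells of a type and less mark per cell cannot be told apart.

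Depth, in megatags (M) per library, ran from 11.7 to 24.2 for H3K27ac, from 6.41 to 22.7 for H3K4me2 and from 7.72 to 22.9 for the 11 inputs. The labelled tissue was checked against H3K27ac at marker genes. The 5 skeletal muscle markers (Acta1, Ckm, Mb, Ttn, Des) had a peak in all 8 lists, and the cardiac markers Nppa and Myh6 had none in any. The 4 slow fiber markers together stood highest in Sol and next in Dia.

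To show what lies at these genes, the 250 bases before the transcription start site (TSS) of each member are given first, because every one of the 16 lists had a region over each of these starts. Sequences are from RefSeq's assembly GRCm38.p6, the same coordinates as the mm10 build of the files. Promoters read 5′ to 3′ in the direction of the gene, and capitals mark the word TGACG, the core of the cyclic AMP response element (CRE) that CREB binds, or CGTCA where it lies on the other strand. In Nr4a2 the capitals TTATTTATAG mark a MEF2 site. The Nr4a1 promoter lies at chr15:101266596-101266845 on the plus strand, the Nr4a2 promoter at chr2:57124004-57124253 on the minus strand and the Nr4a3 promoter at chr4:48045055-48045304 on the plus strand.
Nr4a1 promoter: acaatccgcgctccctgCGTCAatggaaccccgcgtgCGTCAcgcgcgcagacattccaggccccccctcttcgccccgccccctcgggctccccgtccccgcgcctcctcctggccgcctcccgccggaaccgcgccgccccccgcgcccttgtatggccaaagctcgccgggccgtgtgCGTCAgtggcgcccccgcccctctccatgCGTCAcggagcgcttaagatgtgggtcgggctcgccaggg
Nr4a2 promoter: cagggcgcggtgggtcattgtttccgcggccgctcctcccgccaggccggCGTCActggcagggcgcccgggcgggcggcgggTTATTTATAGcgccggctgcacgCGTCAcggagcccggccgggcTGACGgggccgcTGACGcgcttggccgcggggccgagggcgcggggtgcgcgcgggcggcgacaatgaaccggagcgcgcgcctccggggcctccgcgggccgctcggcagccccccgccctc
Nr4a3 promoter: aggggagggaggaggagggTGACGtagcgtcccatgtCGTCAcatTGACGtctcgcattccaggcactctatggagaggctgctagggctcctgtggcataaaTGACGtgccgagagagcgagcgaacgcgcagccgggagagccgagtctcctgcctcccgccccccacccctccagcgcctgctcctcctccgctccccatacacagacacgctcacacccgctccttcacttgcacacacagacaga
Each of the 3 promoters held 4 copies of TGACG, counted on both strands. Of 32851 promoters of the same length, 17.8% held at least 1 copy and 45, or 0.137%, held at least 4. This word was added after the sequences had been read, so its count is a description. The full CRE, TGACGTCA, was in none of the 3 (1.55% of all promoters held it), and neither was NBRE, AAAGGTCA (1.34%), its core AGGTCA (14.0%), the AP-1 word TGANTCA (6.75%) or the CArG box of SRF (1.47%). Nr4a2 held 1 MEF2 site (2.92%).

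Nr4a2 also has an inner TSS at position 57115038 of chromosome 2, used by a shorter curated transcript, and its promoter is shown because a region of both marks lay over or next to it in all 8 groups. It lies at chr2:57115039-57115288 on the minus strand, inside an intron of the longer transcript, and capitals mark 1 full CRE, TGACGTCA, which starts 47 bases before the inner start.
Nr4a2 inner promoter: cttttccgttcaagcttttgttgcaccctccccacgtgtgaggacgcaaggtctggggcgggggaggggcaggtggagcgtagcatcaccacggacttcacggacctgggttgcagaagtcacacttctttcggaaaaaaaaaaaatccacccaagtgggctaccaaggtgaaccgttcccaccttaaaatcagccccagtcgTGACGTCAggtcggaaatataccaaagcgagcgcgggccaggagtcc

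The 7 further stretches below were open chromatin in quadriceps, in sites of 195 bases from the authors' ATAC-seq list, within the NR4A regions. They were picked after their letters had been read, as the sites outside every annotated exon of their own NR4A gene that hold TGACG or a MEF2 site. Exons of neighbouring genes were not checked. The Nr4a2 site at -0.2 kb was left out because most of it is in the promoter already printed. Of the other sites without an exon of their gene, those of Nr4a3 at -96.9 and -0.6 kb hold neither word. The printed sites read on the plus strand, and capitals mark TGACG on either strand or a MEF2 site. Nr4a1 sites were at chr15:101246327-101246521 and chr15:101248079-101248273, outside every annotated transcript of the gene, and at chr15:101253981-101254175 and chr15:101266474-101266668, in introns of predicted transcripts only. The Nr4a2 site at chr2:57116805-57116999 lay in an intron of a curated transcript. The 2 Nr4a3 sites, at chr4:47948972-47949166 and chr4:48043293-48043487, lay outside every transcript of that gene. Each is named by the distance of its centre from the TSS.
Nr4a1 -20.4 kb: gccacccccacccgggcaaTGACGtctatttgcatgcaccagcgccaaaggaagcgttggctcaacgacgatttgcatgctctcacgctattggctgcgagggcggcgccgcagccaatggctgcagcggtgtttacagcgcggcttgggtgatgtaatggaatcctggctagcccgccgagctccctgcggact
Nr4a1 -18.7 kb: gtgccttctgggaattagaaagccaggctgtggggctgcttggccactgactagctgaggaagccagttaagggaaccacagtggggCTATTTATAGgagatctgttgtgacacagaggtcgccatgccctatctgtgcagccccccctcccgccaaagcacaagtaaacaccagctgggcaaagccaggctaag
Nr4a1 -12.8 kb: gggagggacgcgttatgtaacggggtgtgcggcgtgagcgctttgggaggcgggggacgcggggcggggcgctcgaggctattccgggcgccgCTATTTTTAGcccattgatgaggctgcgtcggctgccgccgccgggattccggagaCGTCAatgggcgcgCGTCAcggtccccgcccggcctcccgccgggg
Nr4a1 -0.3 kb: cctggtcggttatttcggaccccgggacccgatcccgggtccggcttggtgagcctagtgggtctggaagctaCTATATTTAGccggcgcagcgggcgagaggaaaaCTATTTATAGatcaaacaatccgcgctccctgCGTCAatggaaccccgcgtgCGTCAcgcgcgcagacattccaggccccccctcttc
Nr4a2 +7.1 kb: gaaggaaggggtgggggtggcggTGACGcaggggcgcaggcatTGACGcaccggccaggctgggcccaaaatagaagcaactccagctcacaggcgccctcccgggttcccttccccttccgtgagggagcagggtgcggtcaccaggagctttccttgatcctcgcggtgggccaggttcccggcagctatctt
Nr4a3 -96.2 kb: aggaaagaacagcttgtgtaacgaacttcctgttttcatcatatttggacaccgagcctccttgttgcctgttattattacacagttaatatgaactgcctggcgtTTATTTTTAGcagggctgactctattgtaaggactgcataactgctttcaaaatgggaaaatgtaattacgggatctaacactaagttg
Nr4a3 -1.9 kb: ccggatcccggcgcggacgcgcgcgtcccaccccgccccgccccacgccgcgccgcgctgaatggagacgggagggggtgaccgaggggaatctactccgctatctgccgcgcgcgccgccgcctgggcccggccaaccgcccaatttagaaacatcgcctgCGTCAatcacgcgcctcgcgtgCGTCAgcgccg
MEF2 proteins bind DNA in muscle and nerve and are released from class IIa histone deacetylases by calcium signals. A MEF2 site lay in the Nr4a1 sites at -18.7, -12.8 and -0.3 kb, the last of which held 2, and in the Nr4a3 site at -96.2 kb. It also lay in the Nr4a2 site 0.2 kb before the TSS, where it is the site printed within the Nr4a2 promoter. Of all 44911 accessible sites of that length, 4.69% held one. The word TGACG lay in 14.9% of them, and in the Nr4a1 sites at -20.4, -12.8 and -0.3 kb, the Nr4a2 site at 7.1 kb and the Nr4a3 site at -1.9 kb among those printed. None of the 13 accessible sites in NR4A regions held NBRE, which was in 1.71% of all sites, and the shorter AGGTCA, in 15.97% of all, lay in the Nr4a1 site at -6.2 kb and the Nr4a3 site at -0.6 kb. A match is a description of letters and shows no binding.

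Nr4a1 carried the widest acetylated domain of the family. Its TSS lies at position 101266846 of chromosome 15, and H3K27ac regions with its name ran from 101244995 to 101272907, from upstream of the earliest predicted start through most of the gene body, with 2 small regions beyond it in Sed and Wt. In EDL and Sed most of this was 1 region of 19.7 and 21.9 kb, whereas in Ex it was in 5 regions and in mTg also in 5. The region over the TSS ranged from 3.38 kb in Ex to 21.9 kb in Sed. Together the Nr4a1 regions covered from 14.9 kb in Dia (percentile 90.6 among genes of that list) to 26.1 kb in Quad (percentile 96.0).

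The H3K27ac level at the Nr4a1 start was high in every group. Levels per kb are the deposited log2 value of each library less the log2 of the region's width in kb. They were 8.18 and 7.81 in EDL, 7.75 and 7.43 in Quad, 7.83 and 7.74 in Dia and 7.28 and 6.77 in Sol. They were 7.39 and 7.0 in Sed, 7.43 and 6.73 in Ex, 7.20 and 7.21 in Wt and 7.03 and 6.60 in mTg. Within each list the mean level stood at percentile 86.2 to 97.5 of all regions, with a tag density 7.39 to 15.96 times that of the input. Because each list was scaled on its own, and the regions differ in width, the order of these values between groups was not read. In 2 lists another region stood highest per kb: the one centred at -19.4 kb in Sol (7.44 and 7.18) and at -19.5 kb in Ex (7.33 and 7.16).

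H3K4me2 broke the same stretch into separate blocks. A block about 20 kb upstream was found in 7 of 8 groups, all but Wt, and one about 12 kb upstream in all 8. The block over the TSS was 4.91 to 11.03 kb wide, and its level per kb stood at percentile 61.1 to 93.1. In 4 of the 8 groups the highest Nr4a1 H3K4me2 level per kb was not at the start. It was at -12.7 kb in Dia (7.66 and 7.54, against 7.16 and 7.08 over the TSS) and at -12.5 kb in mTg (6.90 and 6.31, against 6.26 and 5.91). It was at -20.5 kb in Sol (6.93 and 6.81, against 6.49 and 6.75) and in Ex (6.85 and 6.63, against 6.36 and 6.28).

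The name Nr4a1 did not catch all of this domain. In EDL, Dia, Sed and Wt the stretch from about 28 to 15 kb upstream was joined into 1 region named for the neighbour A330009N23Rik, while in Quad, Sol, Ex and mTg its inner portion was a separate region or part of one, named Nr4a1. Taken by position, from 30 kb before to 10 kb after the TSS under other names too, and leaving out regions of the next gene downstream, Atg101, the regions covered 25.8 kb (mTg) to 35.1 kb (Wt). Atg101 regions were left out because they reach into this window in EDL, Quad and Sed but start just beyond it in Sol, Ex, Wt and mTg, so that counting them whole would add to some groups only. That choice was made after the data had been seen, and its H3K27ac values stand beside those by name in the comparisons below.

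Nr4a2 had small, sharp regions. Its TSS lies at position 57124003 of chromosome 2 on the minus strand, and a region of 0.759 to 1.81 kb covered it in all 8 H3K27ac lists. A wider region, 2.30 to 3.99 kb, was centred 7.08 to 7.92 kb into the gene, again in all 8. It reached over the inner start in EDL, Quad, Sol, Dia and Sed and stopped short of it in Ex, Wt and mTg. H3K27ac levels per kb over the TSS were 8.30 and 7.82 in EDL, 6.92 and 6.35 in Quad, 8.23 and 8.01 in Dia and 7.87 and 7.29 in Sol. They were 7.58 and 7.98 in Sed, 7.55 and 6.53 in Ex, 7.17 and 7.30 in Wt and 7.84 and 7.42 in mTg. In Quad (7.30 and 6.77) and Dia (8.39 and 7.89) the inner region was the higher of the pair, and in the 6 other groups the TSS was. The TSS region stood at percentile 79.2 to 98.8 of its list and the inner region at 81.4 to 96.9.

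H3K4me2 was strongest around the inner start of Nr4a2. There it formed a region of 4.31 to 5.70 kb at percentile 91.6 to 99.98, and the mean level per kb was the highest of the gene in 7 of 8 groups. In mTg the TSS region was the highest (7.18 and 6.49). A region centred about 21 kb downstream, past the 3′ end of the gene, carried H3K4me2 in all 8 groups and H3K27ac in 0. A small region about 14 kb upstream carried H3K27ac in EDL, Quad, Sed, Wt and mTg, and H3K4me2 in EDL, Quad, Sed, Ex and Wt. It was in neither list of Sol or Dia, but with levels at percentile 23.3 to 52.9 for H3K27ac it lay low in the lists that held it, and a missing peak is not a measured 0.

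Nr4a3 had the highest promoter level per kb relative to its list. The region over its TSS, at position 48045305 of chromosome 4, was 3.52 to 6.18 kb wide and stood at percentile 98.1 to 99.5 in all 8 H3K27ac lists. Its levels per kb were 8.70 and 8.34 in EDL, 8.29 and 7.82 in Quad, 8.85 and 8.60 in Dia and 8.18 and 7.71 in Sol. They were 7.81 and 8.12 in Sed, 8.31 and 7.74 in Ex, 7.43 and 7.43 in Wt and 7.79 and 7.49 in mTg. It was the highest Nr4a3 region in every group for both marks, and H3K4me2 there spanned 6.91 to 8.10 kb at percentile 97.4 to 99.4. A lone distal region centred 96.6 to 97.1 kb upstream was acetylated in all 8 groups, at percentile 44.2 to 69.3, and carried H3K4me2 in 7, all but Ex.

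**Figure D1:**
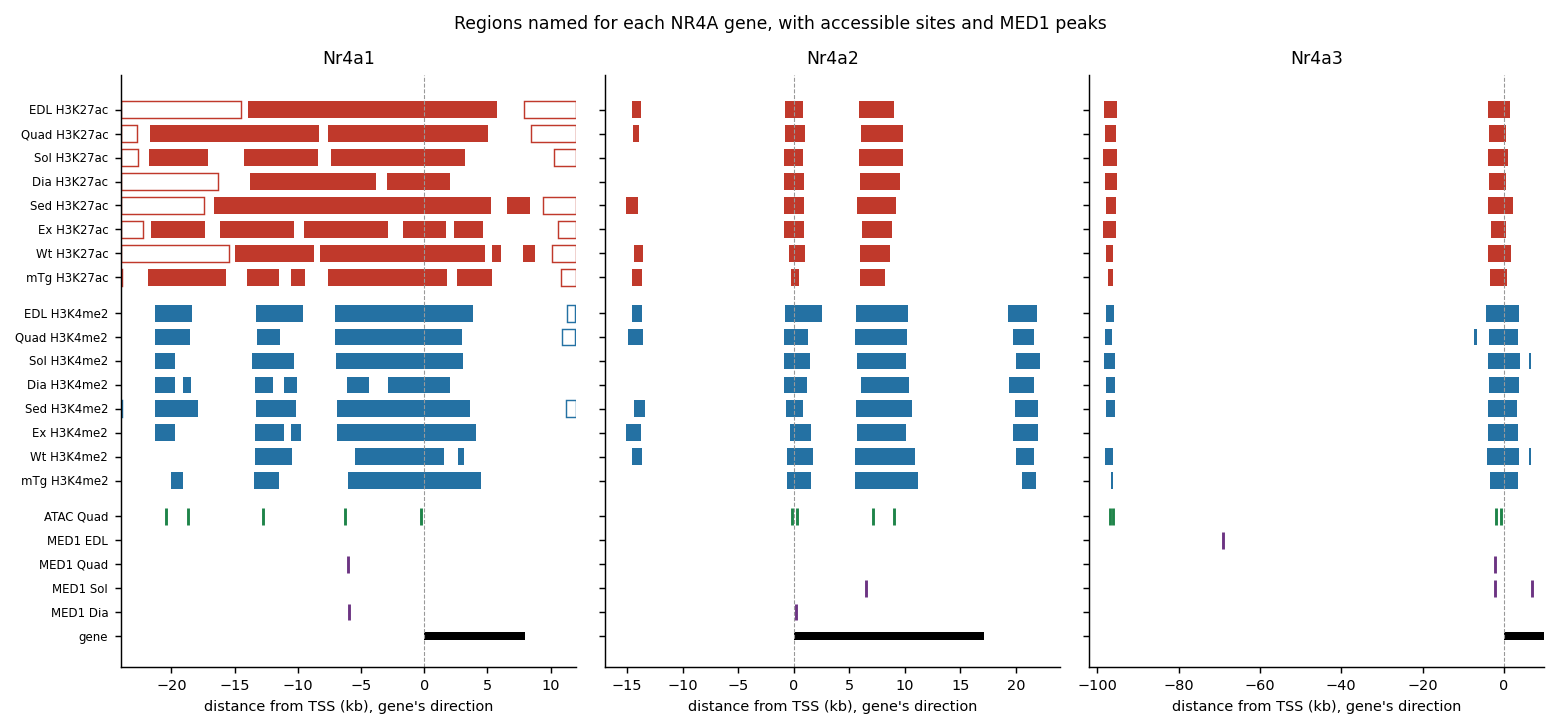
Positions of the regions named for each NR4A gene, with distance from the TSS in kb on the x axis (the gene reads to the right) and 1 row for each group and mark (red H3K27ac, blue H3K4me2, filled bars). Open bars are regions of the same lists at the Nr4a1 locus named for a neighbouring gene, green ticks are accessible sites in quadriceps, purple ticks are MED1 peaks and the black bar is the gene from its TSS; a filled bar crosses the TSS in every histone row of all 3 panels.

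To set groups side by side gene by gene, the levels of a gene's regions were summed on the linear scale in each library and expressed in log2 relative to the median gene, over the 9525 genes with an H3K27ac region in all 8 groups and the 13149 with an H3K4me2 region in all 8. This summary was added after the data had been seen. Nr4a1 H3K27ac was 3.34 and 2.91 in EDL, 3.57 and 3.23 in Quad, 2.58 and 2.29 in Dia and 2.97 and 2.52 in Sol. Nr4a1 was 3.03 and 2.43 in Sed, 2.44 and 2.31 in Ex, 3.06 and 3.17 in Wt and 3.13 and 2.99 in mTg. Its group means stood at percentile 93.6 to 98.2 of all genes, highest in Quad, then in EDL, Wt, mTg, Sol, Sed, Dia and Ex. Libraries of every pair of neighbours in that order overlapped, apart from mTg and Sol. By position and without Atg101 regions, EDL was at 4.07 and 3.77 and Quad at 3.93 and 3.64, so the order of these groups turned, with overlapping libraries.

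The H3K27ac sum of Nr4a2 was 1.49 and 0.88 in EDL, 1.07 and 0.50 in Quad, 1.70 and 1.25 in Dia and 1.49 and 0.86 in Sol. It was 1.17 and 0.97 in Sed, 0.58 and 0.05 in Ex, 0.77 and 1.15 in Wt and 0.67 and 0.53 in mTg. Nr4a2 stood at percentile 59.9 to 82.5, and its order was Dia, EDL, Sol, Sed, Wt, Quad, mTg and Ex, with overlap between the libraries of all neighbours. For Nr4a3 the sum was 2.17 and 1.82 in EDL, 1.82 and 1.46 in Quad, 2.02 and 1.82 in Dia and 2.06 and 1.67 in Sol. It was 1.76 and 1.83 in Sed, 1.499 and 1.297 in Ex, 1.68 and 1.77 in Wt and 1.91 and 1.79 in mTg, at percentile 83.4 to 88.4. Its highest mean was in EDL and its lowest in Ex, and neighbours overlapped throughout. Sums grow with the length a gene's regions cover, so they compare groups and not the 3 genes. In H3K4me2 all 3 sums stood at percentile 94.1 to 98.5.

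**Figure D2:**
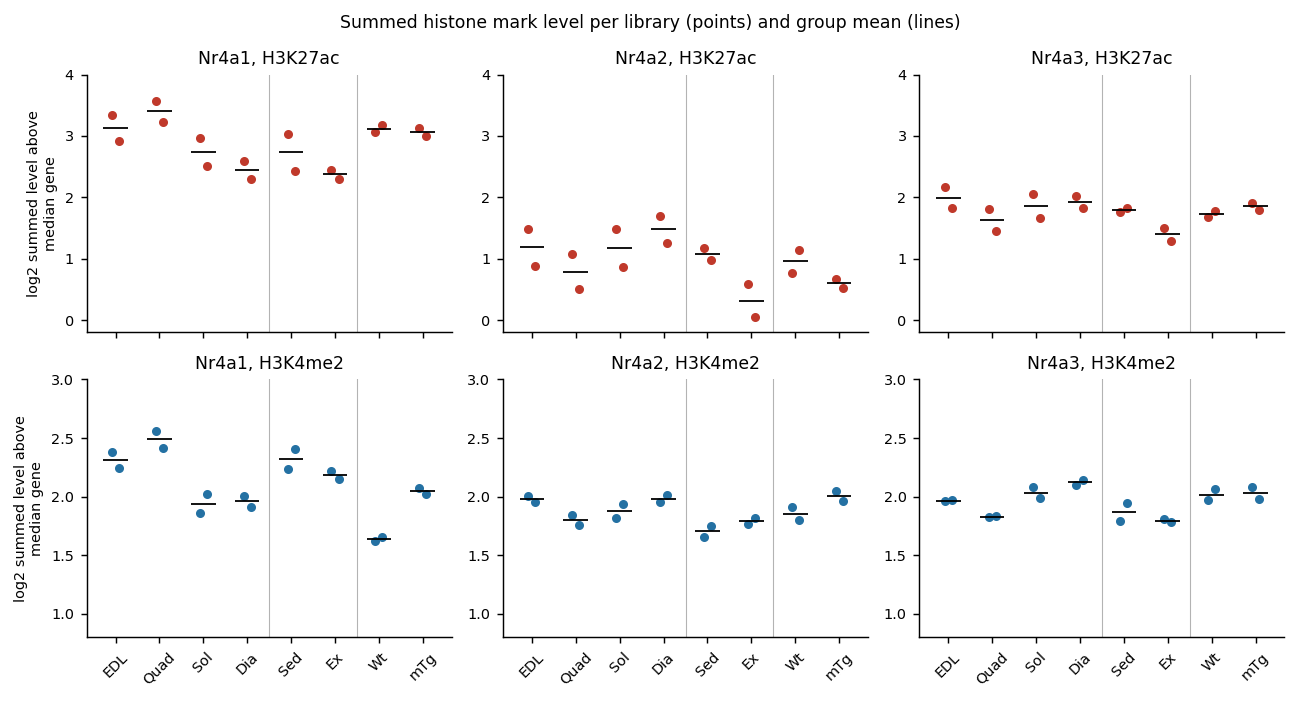
Summed level per gene on the y axis (log2, relative to the median gene of the library) in each of the 8 groups on the x axis, with H3K27ac above and H3K4me2 below. Each point is 1 library and each line the mean of 2; Nr4a1 H3K27ac lies between 2.29 and 3.57 and Nr4a2 between 0.05 and 1.70.

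The muscles were compared to ask whether the NR4A genes carry the marks differently in glycolytic and oxidative muscle. In H3K27ac, 0 of the 3 genes was over 2-fold apart with separate replicates between Sol and Quad, where 15.9% of all genes were, and 0 of 3 between Dia and Quad, where 16.5% were. In H3K4me2 it was 0 of 3 in both pairs, against 5.62% and 6.54% of all genes. The differences nearest to that size were those of Nr4a1, which was lower than Quad by 0.66 in Sol and 0.96 in Dia (log2), with the libraries of the groups apart. Its H3K4me2 sums went the same way, from 2.56 and 2.42 in Quad to 1.86 and 2.02 in Sol (difference -0.55) and 2.01 and 1.91 in Dia (-0.53). Counted by position, the Nr4a1 H3K27ac difference was -0.73 in Sol and -0.49 in Dia (-0.91 and -0.66 with the Atg101 region that only Quad then adds). Libraries apart, here and below, means only that the 2 values of each group did not overlap, and its share over all genes was not counted.

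Untreated quadriceps gives a measure of how far groups of one muscle drift. The Nr4a1 H3K27ac sum of Quad was 0.67 above that of Sed and 0.28 above that of Wt, and Wt was 0.38 above Sed, each with libraries apart. In H3K4me2, Quad was 0.85 above Wt for Nr4a1. By name, the Nr4a1 H3K27ac difference of Sol from Quad was thus about that of Sed from Quad, and that of Dia was larger. By position the Nr4a1 sum was 3.93 and 3.64 in Quad, 3.88 and 3.96 in Wt and 3.72 and 3.16 in Sed, and 3.26 and 2.85 in Sol and 3.36 and 3.24 in Dia. Sol and Dia thus lay below Quad and Wt, while a Sed library fell below both Dia libraries and within the range of Sol. Nr4a2 and Nr4a3 H3K27ac were higher in Dia than in Quad by 0.69 and 0.29, with libraries apart, and the 3 untreated quadriceps pairs differed by 0.11 to 0.29 for Nr4a2 and 0.07 to 0.16 for Nr4a3, in size.

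Single regions were then matched between lists when each overlapped at least 50% of the other, and levels per kb were compared after centring on the median matched region. A region was called where the means were over 2-fold apart and the replicates did not overlap. Between EDL and Quad 1 of 6 matched NR4A regions was called in H3K27ac, against 0.644% of all matched regions. Between Sol and Quad it was 0 of 5 (3.74% of all), between Dia and Quad 1 of 4 (4.26%), between Sol and EDL 0 of 5 (2.88%), between Dia and EDL 0 of 5 (3.11%) and between Dia and Sol 0 of 5 (1.65%). Among untreated quadriceps it was 0 of 5 for Quad and Sed (1.07%), 1 of 6 for Quad and Wt (1.36%) and 0 of 5 for Wt and Sed (0.495%).

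All 3 calls were the Nr4a2 TSS region, and all 3 had Quad on the low side. In these pairs the share of NR4A regions called was above the background, but it was the same single region each time. EDL was above Quad by 1.08 and Dia above Quad by 1.02 (log2 per kb, centred), and Quad was below Wt by the same 1.02. Sol stood 0.88 above Quad and Sed 0.99 above it, short of the threshold. The region was therefore low in the Quad libraries (6.92 and 6.35) against other muscles and against other quadriceps alike, and the comparisons share those libraries. Without Quad replicate 2 there were 0 calls over all pairs, and without Quad replicate 1 there were 5. H3K4me2 at the same region differed less. EDL minus Quad was -0.28, Sol minus Quad -0.02 and Dia minus Quad 0.18, while Quad minus Sed was -0.20 and Quad minus Wt -0.24, so Quad was on the low side against Dia, Sed and Wt but not against EDL. The inner Nr4a2 region was also higher in EDL (by 0.67) and Dia (by 0.64) than in Quad.

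Across all 11 pairs, 43 of 56 matched H3K27ac comparisons and 75 of 81 matched H3K4me2 comparisons of NR4A regions were under 1.5-fold apart. That share was not counted over all matched regions, so it does not set NR4A regions apart. The pairs also share regions and libraries. Of all matched H3K27ac regions, the 5th to 95th percentile ran from -0.56 to 0.56 for EDL and Quad and from -0.85 to 0.69 for Ex and Sed. In H3K4me2 no matched NR4A region was called. The counts were 0 of 8 for EDL and Quad (0.453% of all matched regions), 0 of 8 for Sol and Quad (1.88%), 0 of 7 for Dia and Quad (1.58%), 0 of 8 for Sol and EDL (0.626%), 0 of 6 for Dia and EDL (0.678%) and 0 of 6 for Dia and Sol (0.439%). For untreated quadriceps they were 0 of 9 for Quad and Sed (0.739%), 0 of 8 for Quad and Wt (2.69%) and 0 of 8 for Wt and Sed (1.78%). The largest H3K4me2 differences in size were those of Nr4a1 between Sol and Quad, -0.67 over the TSS and -0.73 at the block about 12 kb upstream.

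**Figure D3:**
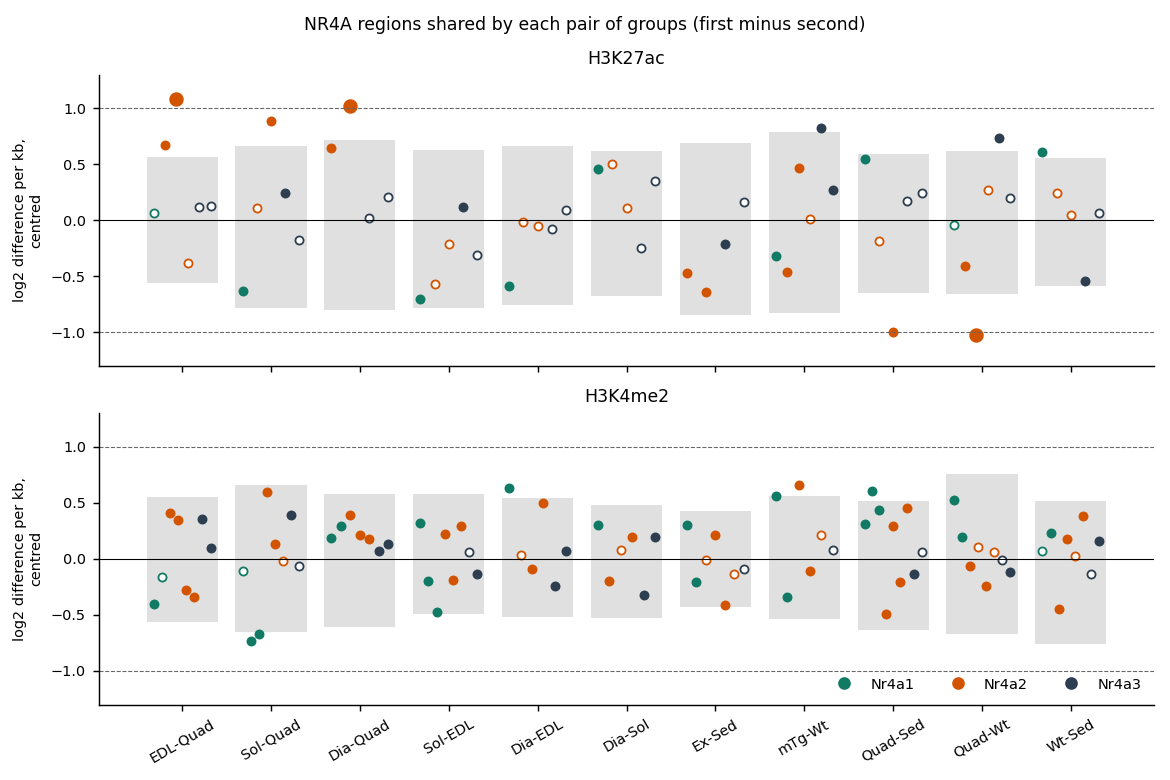
Difference in level per kb (log2, centred, y axis) at each NR4A region shared by a pair of groups (x axis, first minus second), for H3K27ac above and H3K4me2 below. Colours give the gene, filled points have separate replicates, large points are the 3 called regions, grey bands hold the middle of all matched regions (5th to 95th percentile) and dashed lines mark 2-fold; the large points, at 1.08, 1.02 and -1.02, are all the Nr4a2 TSS.

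Exercise was compared with the sedentary state because physical activity induces NR4A transcription. Hours after the last bout, no NR4A region was in the hyperacetylated list (0 of 3 genes, against 2.3% of genes with an H3K27ac region in both groups) or in the hypoacetylated list (0 of 3, against 11.5%). By summed H3K27ac level 0 of 3 genes was over 2-fold apart, where 20.3% of all genes were, and by H3K4me2 0 of 3, where 3.78% were. All 3 means were lower in Ex. Nr4a2 differed most, from 1.17 and 0.97 in Sed to 0.58 and 0.05 in Ex, a difference of -0.76 with libraries apart. Nr4a3 differed by -0.40, also with libraries apart, and Nr4a1 by -0.36 with libraries that overlapped. In H3K4me2 the differences were -0.14 for Nr4a1, 0.09 for Nr4a2 (-0.035 without centring on the median gene) and -0.08 for Nr4a3.

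At single regions, 0 of 4 matched H3K27ac regions was called between Ex and Sed (3.17% of all) and 0 of 7 H3K4me2 regions (0.0925%). The Nr4a2 TSS region was 0.64 lower in Ex and the inner region 0.47 lower, both with separate replicates, as 56.7% of all matched regions had. The Nr4a3 TSS region was 0.16 higher with overlapping replicates and its distal region 0.21 lower. No Nr4a1 region could be matched, since the single region of 21.9 kb in Sed lay over several shorter ones in Ex. By position, where the Sed regions covered 34.97 kb and the Ex regions 28.2 kb, the Nr4a1 sum was 3.72 and 3.16 in Sed and 2.73 and 2.57 in Ex. That is a difference of -0.79 with libraries apart, against -0.36 by name. It was -0.91 when the Atg101 region was counted, which then enters in Sed only.

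Markers of tissue composition moved between the same libraries. Summed H3K27ac over the 5 skeletal muscle markers was 4.93 and 4.52 in Sed and 3.78 and 3.55 in Ex, and over the 4 fast fiber markers 3.89 and 3.30 in Sed and 3.05 and 2.90 in Ex. The 3 fibroblast markers stood at 1.95 and 2.29 in Sed and at 3.18 and 3.59 in Ex, and the 4 leukocyte and macrophage markers at -0.67 and -0.58 in Sed and at 0.63 and 1.07 in Ex. Endothelial markers went from 3.28 and 3.17 to 3.56 and 3.65, and adipocyte markers from -0.74 and -0.72 to 0.22 and 0.46. A marker without a peak adds nothing to its sum. Peaks were at 1 adipocyte marker in Sed and 3 in Ex, and at 3 and then 4 leukocyte and macrophage markers. Among markers with a peak in all groups, Adipoq differed by 0.54, Csf1r by 1.12 and Adgre1 by 1.75. The 4 slow fiber markers went the other way, from -1.85 and -1.95 in Sed to -0.83 and -0.87 in Ex. Peaks were at 1 of these in Sed and 2 in Ex. Sums of general and fast fiber muscle markers were thus lower in Ex. Those of slow fiber markers and of the other 4 cell types were higher. The part of these markers in the NR4A differences was not tested. The paper, from quantitative PCR of marker RNA, reported that the cell makeup of Ex muscle had not changed.

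The nearest listed region lay just beyond Nr4a1. It was a hypoacetylated region named for the neighbour Atg101, at chr15:101276257-101281605, 1.46 kb past the end of Nr4a1 and 9.41 kb from its TSS. Its deposited level was 7.95 and 7.67 in Ex and 8.91 and 8.27 in Sed. The difference was -0.78 (SE 0.21, n = 2 against 2, limma adjusted p = 0.000672). The list holds regions the authors chose for differing, so this test shows only the spread between libraries of a region already picked. After each library was centred on its median over the lists, the difference was -0.22 with a limma adjusted p of 0.475. Most regions behind that median (2280 against 382) were picked as hypoacetylated. Centring therefore removes the fall they share and cannot decide on this region. Without Ex replicate 2 the difference was -0.64. For Nr4a2 the nearest listed region was 105 kb from the TSS and for Nr4a3 218 kb.

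Pgc1a overexpression was compared with wild type littermates, as PGC1α is itself a coactivator of nuclear receptors and an exercise-induced gene. No NR4A gene had a region in the hyperacetylated list (0 of 3, against 10.6% of genes with an H3K27ac region in both groups) or the hypoacetylated list (0 of 3, against 4.96%). In summed H3K27ac 0 of 3 genes was over 2-fold apart (18.8% of all genes), and in H3K4me2 0 of 3 (7.26%). Nr4a1 differed by -0.06, Nr4a2 by -0.37 and Nr4a3 by 0.12, the last 2 with libraries apart, though the Nr4a3 difference was -0.13 without centring on the median gene. By position, over 25.8 kb in mTg and 35.1 kb in Wt, Nr4a1 went from 3.88 and 3.96 in Wt to 3.49 and 3.43 in mTg, a difference of -0.46. In H3K4me2 the sums differed by 0.41 for Nr4a1 (2.07 and 2.03 in mTg, 1.62 and 1.66 in Wt), 0.15 for Nr4a2 and 0.02 for Nr4a3, and without centring they were -0.082, -0.34 and -0.47.

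At matched regions 0 of 6 was called in H3K27ac between mTg and Wt (4.64% of all) and 0 of 6 in H3K4me2 (0.724%). The largest H3K27ac difference was at the distal Nr4a3 region 97 kb upstream, from 4.86 and 5.01 per kb in Wt to 5.70 and 5.68 in mTg, or 0.82 after centring. At this region Quad stood 0.73 above Wt, and Wt minus Sed was -0.54, so Wt was low against the other untreated quadriceps too. At Nr4a2 the TSS region was 0.47 higher in mTg and the inner region 0.46 lower, and the region 14 kb upstream differed by 0.01. The Nr4a3 TSS was 0.27 higher and the Nr4a1 TSS region 0.32 lower. Summed H3K27ac over the fibroblast markers was 2.64 and 2.20 in Wt and 1.38 and 1.64 in mTg, over the leukocyte and macrophage markers 1.05 and 0.73 and then 0.03 and 0.35, and over the fast fiber markers 4.82 and 4.82 and then 4.40 and 4.38, all lower in mTg. Over the skeletal muscle markers it was 5.06 and 5.09 in Wt and 5.34 and 5.39 in mTg, and over the endothelial markers 2.55 and 2.39 and then 2.71 and 2.89, both higher in mTg. Adipocyte markers, at -0.39 and -0.68 in Wt and -0.71 and -0.65 in mTg, overlapped between the groups, while their median over genes, that of Adipoq, differed by -1.14. Peaks were at 4 leukocyte and macrophage markers in Wt and 3 in mTg. Among those with a peak in all groups, Csf1r differed by -0.45 and Adgre1 by -0.88. The paper, from quantitative PCR of marker RNA, reported higher macrophage and vascular markers in mTg. It proposes that altered cell makeup could contribute to mTg signals. The endothelial sums here went the same way as that RNA, and the leukocyte and macrophage sums the opposite way. The part of cell makeup in the small NR4A differences was not tested.

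The genes around the family in its pathway were taken from lists of known members and are given by their own counts. The 16 inducers include CREB and its coactivators, protein kinase A, SRF, the MEF2 factors and the class IIa deacetylases that hold MEF2 back. Of these 0 had a hyperacetylated region after exercise (2.3% of all genes did), while Mef2a, Mef2c and Hdac4 were among those with a hypoacetylated one (11.5% of all). In mTg 1 of the 16, Hdac4, had a hypoacetylated region, where 4.96% of all genes had one. The largest change in each gene was -0.81 for Mef2a, -0.85 for Mef2c and -0.91 for Hdac4 in Ex, and -0.72 for Hdac4 in mTg. The median summed H3K27ac difference of the 12 inducers measured in all groups was -0.34 for Ex and Sed, 0.13 for mTg and Wt, -0.21 for Sol and Quad and 0.07 for Dia and Quad. The medians over all genes were -0.02, 0.03, 0.05 and 0.03 in that order.

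Metabolic genes that NR4A receptors are known to act on had the lowest median of the 4 pathway lists between Ex and Sed and between Sol and Quad. The 16 genes include Slc2a4 (the glucose transporter GLUT4), Pygm and Phka1 (glycogen breakdown), Pfkm and Pgam2 (glycolysis), Prkag3 (an AMPK subunit), Lpin1, Cd36, Ucp3 and Pdk4 (fatty acid use). After exercise 0 had a hyperacetylated region (2.3% of all genes did) and 7 had a hypoacetylated one (11.5% of all): Phka1, Pfkm, Pgam2, Prkag3, Lpin1, Ucp3 and Pdk4. The largest fall was 1.09 at Lpin1, and the 3 Pdk4 regions lay between -0.92 and -0.80. In mTg, where 10.6% of all genes had a hyperacetylated and 4.96% a hypoacetylated region, 4 had a hyperacetylated region (Phka1, Lpin1, Cd36, Ucp3), with the highest at Lpin1 (1.55) and Cd36 (1.15), and 1 a hypoacetylated region (Prkag3, -1.04). The median summed difference was -1.07 for Ex and Sed, 0.14 for mTg and Wt, -0.78 for Sol and Quad and -0.07 for Dia and Quad. The fall in Ex stands beside that of the skeletal muscle markers, whose median was -1.004, and in Sol beside that of the 3 measured fast fiber markers, whose median was -4.04.

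The partners and coregulators, and other early genes, are set against the same shares of all genes, 2.3% hyper- and 11.5% hypoacetylated in Ex and 10.6% and 4.96% in mTg. Among 8 genes, the coactivator Ncoa3 had 1 hyperacetylated region in Ex (0.46) and the corepressor Ncor1 had 2 in mTg (up to 0.84). Rxrg, 1 of the retinoid X receptor genes, had hypoacetylated regions in both Ex (-0.67) and mTg (3 regions, down to -0.69). The other retinoid X receptor genes, Rxra and Rxrb, had no region in any differential list. The summed Rxrg level was also lower than Quad by 1.88 in Sol and by 1.57 in Dia. The medians over the 7 genes measured in all groups were 0.02 for Ex and Sed, 0.08 for mTg and Wt, -0.16 for Sol and Quad and -0.30 for Dia and Quad. Of 11 other immediate early genes, such as Fos, Jun and Egr1, Klf4 had a hyperacetylated and Jun a hypoacetylated region in Ex. In mTg, Ier2 and Klf4 had hyperacetylated regions and Fosl2 hypoacetylated ones. Their medians were -0.01, -0.03, 0.33 and 0.56 in the same order, so those for Sol and Dia lay above Quad. Nr4a1 lay below Quad in both muscles. Nr4a2 (0.39 in Sol, 0.69 in Dia) and Nr4a3 (0.23 and 0.29) lay above it, with overlapping libraries in Sol.

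**Figure D4:**
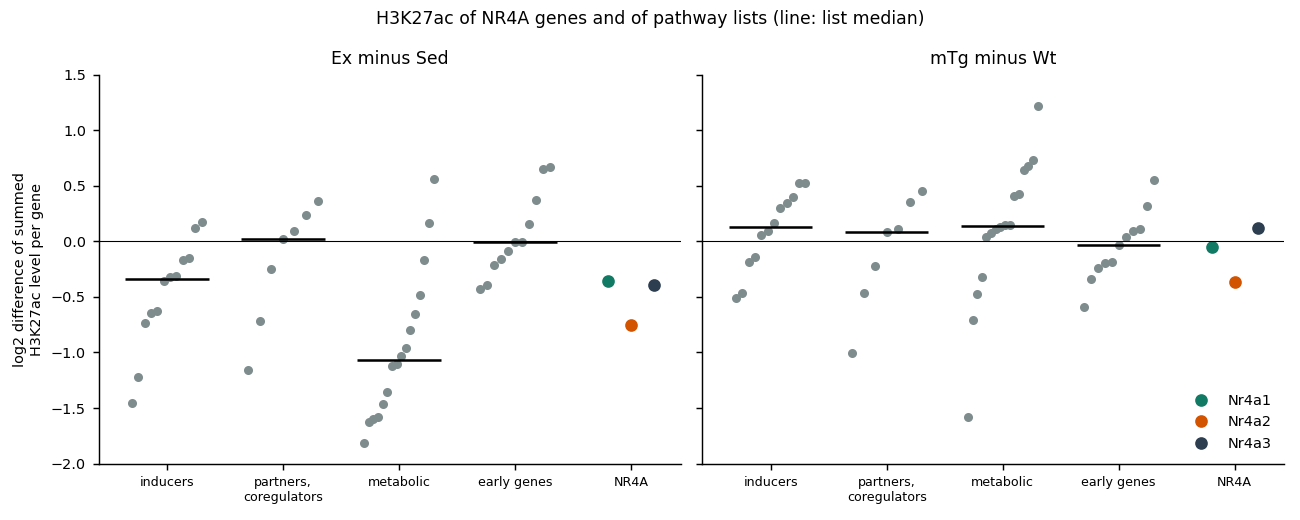
Difference in summed H3K27ac level per gene (log2, relative to the median gene, y axis) between Ex and Sed on the left and mTg and Wt on the right, for 4 pathway lists and the NR4A genes (x axis). Each point is 1 gene and lines are list medians; the metabolic list has a median of -1.07 in Ex and 0.14 in mTg, and the NR4A genes lie between -0.76 and 0.12.

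Open chromatin and cofactor peaks located sites within the acetylated domains. Of the 44911 accessible sites in the 1 list of control quadriceps, 13 lay in H3K27ac regions named for NR4A genes in quadriceps groups: 5 for Nr4a1, 4 for Nr4a2 and 4 for Nr4a3. The most accessible was the Nr4a1 site at -20.4 kb, with 35.8 normalised tags (percentile 98.8), followed by the Nr4a3 site at -1.9 kb with 30.9 tags (percentile 97.7). The Nr4a2 sites were weaker, from 5.0 tags at 0.3 kb inside the gene to 14.1 tags at 7.1 kb. H3K27ac covered 12 of the 13 sites in all 8 groups, the exception being the Nr4a2 site at 9.0 kb, and H3K4me2 covered 8 of them in all 8. Because the sites were chosen for lying in H3K27ac regions of quadriceps groups, their acetylation there follows from the choice. The same shares over all accessible sites were not counted, so these counts are a description. The Nr4a1 site at -20.4 kb, whose sequence is printed above, lacked H3K4me2 in Wt and mTg. Of 42 NR4A H3K27ac regions in quadriceps groups 32 held an accessible site. These count the same loci again in Quad, Sed, Ex, Wt and mTg, all against the 1 control list. In Quad itself, of 7 NR4A regions only the Nr4a2 region at -14.2 kb held none, and 57.2% of all Quad regions held one. The shares are not matched for width.

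MED1, a subunit of the Mediator complex that links enhancers to RNA polymerase, was profiled in 1 pooled library per muscle. Among NR4A H3K27ac regions of the 4 muscles, 6 of 26 overlapped a MED1 peak of the same muscle, while among all regions of a list the share was 5.34% in Sol, 4.16% in Dia, 3.76% in Quad and 1.12% in EDL. The wide Nr4a regions have more room for a peak than a typical region, so these shares are not matched for width. Nr4a1 had a peak 6.0 kb upstream in both Quad and Dia, beside the accessible site at -6.2 kb. Nr4a3 had a peak 2.1 kb upstream in Quad, overlapping the accessible site at -1.9 kb, and one 2.2 kb upstream in Sol, just beside that site, and Nr4a2 had one 0.2 kb into the gene in Dia and one 6.5 kb into it in Sol. Outside H3K27ac lay the only NR4A peak of EDL, 69.0 kb upstream of Nr4a3, and a further peak of Sol, 6.96 kb inside Nr4a3. For the calcium-regulated factor NFATc1, 0 of 485 peaks in Quad and 14 of 39661 in Sol were named for NR4A genes, and 0 of those 14 lay in a Sol H3K27ac region. The share of all Sol NFATc1 peaks within H3K27ac regions was not counted, so the last count does not set NR4A genes apart. With so few peaks in the Quad list, the 0 there cannot be set against the count in Sol.

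**Figure D5:**
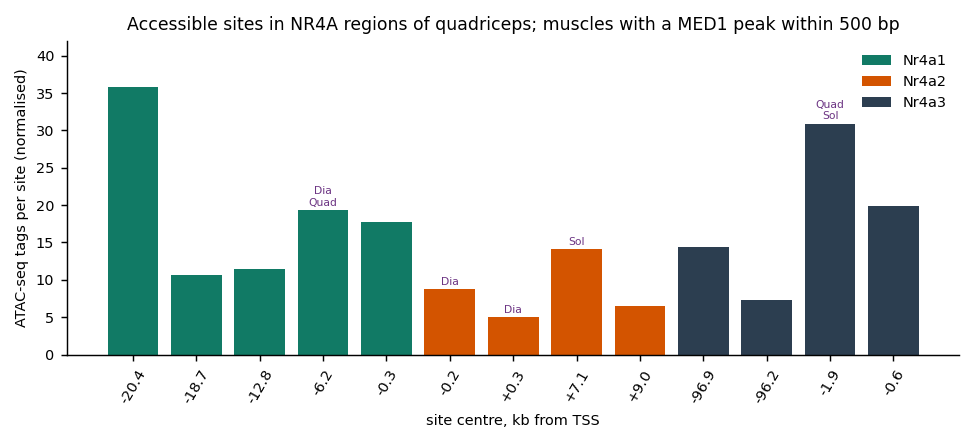
ATAC-seq tags (normalised by the authors, y axis, from 0) at the 13 accessible sites in NR4A regions of control quadriceps, ordered by gene and labelled by the distance of the site's centre from the TSS in kb. Words over the bars name muscles with a MED1 peak within 500 bp; the sites at -20.4 kb of Nr4a1 (35.8) and -1.9 kb of Nr4a3 (30.9) are the highest.

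Genes with the pattern most like each member were ranked by Pearson's r of the summed H3K27ac level over the 16 libraries, which share groups and scaling, so r is a description. Nearest to Nr4a1 were Sdcbp2 (0.91), Map1lc3a (0.89) and Slc7a11 (0.89). Nearest to Nr4a2 were Dnajb2 (0.92), Otud1 (0.91) and Mapt (0.89), and nearest to Nr4a3 were Stk11 (0.94), Msi2 (0.88) and Pdha1 (0.87). Within the family Nr4a2 and Nr4a3 had an r of 0.84, while Nr4a1 had 0.18 with Nr4a2 and 0.34 with Nr4a3.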

How the data were processed

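Chromatin immunoprecipitation (ChIP-seq) libraries of H3K27ac and H3K4me2, with input, and ATAC-seq of C57BL/6 mouse muscle were analysed from the deposited peak lists. Per the labels the reads were aligned to mm10 with Bowtie, and peaks were called, named for the nearest gene and quantified with HOMER. Each histone list was called by the authors over both replicates of a group, with at least 2-fold enrichment over input at an FDR of 0.05. The deposited tag columns are log2 values that the authors normalised within each list (taken as the regularised log of DESeq2), fold over input is a deposited ratio, and each list also gives a deposited adjusted p-value and a deposited peak score. The MED1, NFATc1 and ATAC-seq lists hold the authors' normalised tag counts per peak as a signal. Columns of the authors' own comparisons were not used.

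The members and gene lists were chosen with earlier results of these data known. Peaks were selected by Gene Name. Regions named are, for each member, the one over the TSS, the highest per kb in each group, those in the differential lists and those over 2-fold apart, and similar genes are the 3 of highest r. Because lists were normalised separately, no test was run between them: regions matched by 50% reciprocal overlap were compared as log2 level per kb after centring, and called where over 2-fold apart with replicates that did not overlap, beside the same share over all matched regions. Within the differential lists limma 3.58.1 (R 4.3.3, two-sided, Benjamini-Hochberg adjusted) was used without a block and was tested on simulated data. The design had allowed for count tables, and the log2 values called for limma. Replicates are separate samples in the labels, so the spread is that between 2 samples. Overlaps used bedtools 2.31.1. Motif words were searched on both strands in RefSeq promoters and accessible sites. Alternatives covered thresholds, overlap, width, centring, distance, position and leaving out each library. ATAC-seq lists of exercised and transgenic muscle, on another build, were not used here. Results of 1 gene among the inducers are not reported here.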

Additional observations from a re-analysis of the deposited data

How the results depend on the processing

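The 3 H3K27ac calls at NR4A regions depended on the settings. They became 7 without centring and 13 at a threshold of 1.5-fold, and leaving out each replicate in turn gave 0 (without Quad replicate 2) to 5 (without Quad replicate 1), so single Quad libraries decide these calls. In H3K4me2 the 0 calls became 2 when levels were not divided by width and 6 at 1.5-fold. Without centring, the summed differences changed sign for Nr4a3 H3K27ac between mTg and Wt (-0.13), for Nr4a1 H3K4me2 between EDL and Quad (0.42) and between mTg and Wt (-0.082), and for Nr4a2 H3K4me2 between Ex and Sed (-0.035) and between mTg and Wt (-0.34). That of Nr4a3 H3K4me2 between mTg and Wt, near 0 and with overlapping libraries, also turned (-0.47). So did that of Nr4a1 H3K27ac between EDL and Quad, with overlapping libraries, from -0.28 to 0.22. Lists differed by up to -0.67 (Wt and Sed, H3K27ac) in the uncentred level of the median gene, and the cause was not tested.

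Peak counts at an adjusted p under 0.001 fell to 5 of 9 in Wt and 6 of 10 in mTg for H3K27ac, and to 6 of 10 and 5 of 8 for H3K4me2. For the hypoacetylated Atg101 region beside Nr4a1, the fit with a replicate block gave -0.78 with a limma adjusted p of 6.72e-06. Centring gave 0.475, and leaving out each replicate gave 3.67e-06 to 0.0568, the last without Ex replicate 2. The labels give same-numbered samples only a shared number. The correlations of their deviations were 0.144 and 0.106 for Ex and Sed and -0.0386 and -0.242 for mTg and Wt. These were taken over the selected regions with 2 libraries per group, so they cannot show whether the samples were paired. With the block the regions past 0.05 were 382, 2280, 1828 and 844 in the 4 lists, against 381, 2274, 1828 and 844 without it. After centring they were 382, 0, 1549 and 844. The centring median was taken over these same selected regions, most of them hypoacetylated in Ex and hyperacetylated in mTg. It removes the change they share, so the centred counts and the centred Atg101 value decide nothing. Since no member is in the differential lists, the alternatives for that comparison gave no value for one. With 2 libraries per group, and peak calls that already passed a minimum, a missing region is not a measured absence.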

Other observations

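The Ppargc1a locus, which encodes PGC1α, was read in the same libraries. Its summed H3K27ac level was 2.85 and 1.98 in Sed and 0.94 and 0.69 in Ex, with libraries apart. It was 2.63 and 3.04 in Wt and 2.58 and 2.72 in mTg, where the transgene has a promoter of its own, so this locus does not check the mTg label.

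Around the NR4A genes, Egr2 and Atf3, immediate early transcription factors, had summed H3K27ac levels 1.44 and 1.22 above Quad in Sol and 1.31 and 1.59 above it in Dia. Fbp2, a muscle fructose bisphosphatase, differed by -4.11 in Sol, and Prkag3 by -3.58 in Sol and -2.73 in Dia. These genes were picked after their values were seen.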
